A study of Homo sapiens with 9 samples.

Results

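The genes that commit a cell to division were followed in A375P cells. This established human line comes from a melanoma and carries a mutant RAF kinase. The set is made up of the D cyclins CCND1, CCND2 and CCND3, the E cyclins CCNE1 and CCNE2, the kinases CDK2, CDK4 and CDK6 and the phosphatase CDC25A. These 9 genes were chosen by name. A row of the array entered if the platform table gave it exactly 1 gene symbol and that symbol was in the set, and 8 of the 9 genes had such a row, out of 17047 genes in all. The row that names CDK4 also carries a second symbol, so CDK4 is not analysed here. CCND2 lay among the 25% of genes with the lowest mean and was not tested, which leaves 7 tested genes of 12785.

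Cells had been given the solvent DMSO, 1 µM of PD184352, which inhibits the MEK kinases, or 0.4 µM of PLX4720, which inhibits RAF, and were collected after 2, 6 and 24 h. All groups are the same line in the same culture medium, and no untreated culture is among them. Each treatment has 1 deposited column per time, 9 columns in all. The series speaks of triplicates, but the sources used here do not say whether a column is a single array or an average. The spread between cultures is therefore unknown.

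Progress from G1 into DNA synthesis is driven by a relay of cyclin-dependent kinases. D cyclins are made in response to growth signals that pass through RAF, MEK and ERK, and they activate CDK4 and CDK6, which phosphorylate the retinoblastoma protein and so release E2F transcription factors. E2F then raises the E cyclins, which activate CDK2, while CDC25A removes the inhibitory phosphates from these kinases. Cyclin D1 is a well-known output of the ERK pathway in melanoma.

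RefSeq promoter windows (build GRCh38.p14) were found for 5 of the 9 genes, and none for CCND1, CCND2, CCNE2 or CDK2. The windows of 3 of them are shown because these genes ended with different sizes of fall: CDC25A with the largest of the set, CDK6 with a middle one and CCNE1 with a small one. Each run is the 250 bases before the annotated start, read 5′ to 3′ on the gene's strand. Capitals mark the E2F motif (TTTCCCGC, TTTGGCGC, TTTCGCGC or TTTGCCGC) and the GC box (GGGCGG), both searched on either strand. The CDC25A window is chr3:48188418-48188667 on the minus strand. The CCNE1 window is chr19:29811741-29811990 on the plus strand. The first of 2 CDK6 windows is chr7:92836574-92836823 on the minus strand.
CDC25A: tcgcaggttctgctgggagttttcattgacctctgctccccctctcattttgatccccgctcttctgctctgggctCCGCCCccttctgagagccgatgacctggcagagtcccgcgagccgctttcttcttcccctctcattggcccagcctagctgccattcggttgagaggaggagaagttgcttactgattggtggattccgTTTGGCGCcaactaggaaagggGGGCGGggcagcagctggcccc
CCNE1: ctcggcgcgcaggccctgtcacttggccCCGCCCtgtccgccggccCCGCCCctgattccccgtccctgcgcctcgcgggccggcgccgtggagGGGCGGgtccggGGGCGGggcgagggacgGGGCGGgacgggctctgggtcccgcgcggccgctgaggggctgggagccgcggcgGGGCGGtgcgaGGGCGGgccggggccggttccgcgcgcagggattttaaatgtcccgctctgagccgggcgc
CDK6: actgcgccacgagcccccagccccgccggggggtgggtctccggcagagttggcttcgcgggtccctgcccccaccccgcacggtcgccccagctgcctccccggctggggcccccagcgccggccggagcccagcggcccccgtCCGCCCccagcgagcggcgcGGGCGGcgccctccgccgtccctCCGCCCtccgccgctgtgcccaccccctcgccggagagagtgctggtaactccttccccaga
The CDC25A window held 1 E2F match, TTTGGCGC, which began 44 bases before the start and did not overlap the GC box that began 22 bases before it. Another GC box began 174 bases before the start. Of all 35116 windows of this length 2.79% held such an E2F match. CCNE1 held no E2F match and 7 GC boxes, and this CDK6 window held no E2F match and 3 GC boxes, where 42.6% of all windows held at least 1. The CCND3 and CDK4 windows and the other CDK6 window held no E2F match. AP-1 (TGANTCA), CRE (TGACGTCA), ETS (CCGGAAGT) and E-box (CACGTG) motifs were searched too, and only the CDK4 window held a match, to the E-box. The genes shown were picked by their falls, so their windows cannot link a motif to the size of a fall. A match is a run of letters only, and its absence says nothing about whether a factor binds there.

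Levels are given as log2(intensity + 1), and a change is a difference on that scale. At each time the mean of both inhibitor columns was set against the DMSO column of that time with limma, and "called" means an adjusted p below 0.05 (Benjamini-Hochberg over 12785 genes). The spread in this test comes from the difference between the PD184352 and PLX4720 columns of the same time, pooled over the times. For each gene limma draws it toward the spread common to all genes tested. The compounds differ, and the p-values carry no information on how separate cultures vary. A single row stands for each gene. CCND1 is also named in 2 rows that carry several symbols, which were not used. A level is set beside other genes only as a percentile among all genes, which depends on the probes as well as on the transcript.

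Across the set, 6 of the 7 tested genes were lower at 24 h, where 19.2% of all genes tested were called lower, and none was higher, where 12.5% were. The median change of the 7 was −1.20, against −0.01 over all genes tested. At 6 h, 2 of the 7 were lower, CCND1 and CDK6, where 2.74% of all genes were called lower and 0.548% higher. At 2 h limma called 0 of 7, with 1 of them, CCND3, at an unadjusted p below 0.05, where 0.086% of all genes were called in either direction, 0.0704% lower, and 7.41% had such an unadjusted p. Cyclin D1 and its kinase CDK6 were called at both 6 h and 24 h, and CCNE1, CCNE2, CDK2 and CDC25A at 24 h. Whether one gene differed from another was not tested.

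**Figure D1:**
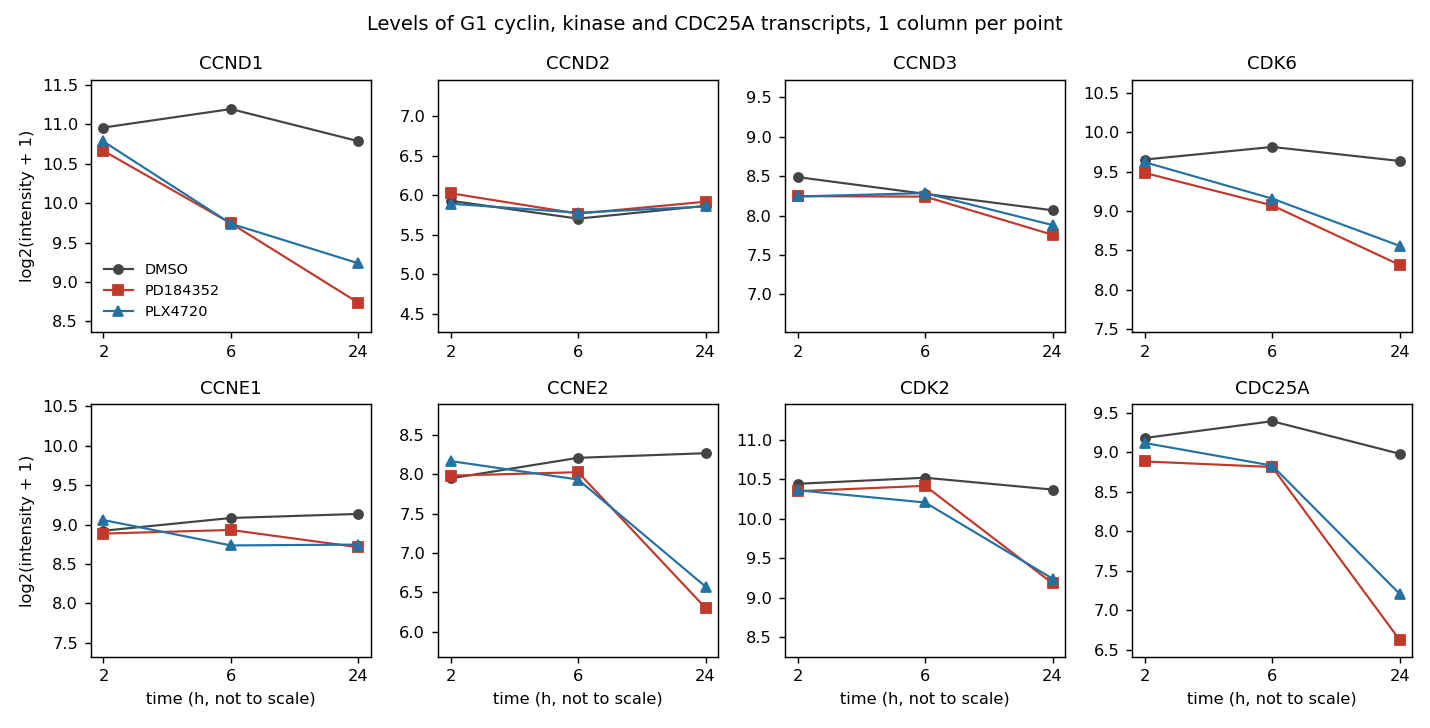
Log2(intensity + 1) of 8 genes (vertical axis) at 2, 6 and 24 h (horizontal axis, not to scale), with 1 point per deposited column and a line for each treatment. Every panel spans the same range of 3.2 log2 units, and CCND1 parts from DMSO by 6 h whereas CCNE2 and CDK2 do so at 24 h.

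Among the D cyclins, CCND1 encodes cyclin D1, the activating partner of CDK4 and CDK6. Its level in DMSO over 2, 6 and 24 h was 10.96, 11.19 and 10.78. With PD184352 it was 10.66, 9.74 and 8.74, and with PLX4720 it was 10.78, 9.74 and 9.24. From 6 h on, both inhibitors lay below every DMSO column by more than the DMSO columns differed among themselves. By limma the 2 h change of −0.24 (SE 0.16, adjusted p = 0.772) was not called. The 6 h change of −1.45 (SE 0.16, adjusted p = 0.00102) and the 24 h change of −1.80 (SE 0.16, adjusted p = 2.68e-05) were. In fold terms cyclin D1 transcript was 2.73-fold lower at 6 h and 3.48-fold lower at 24 h.

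CCND1 had thus covered 80.7% of its 24 h change by 6 h. The difference between its changes at 24 h and 6 h, −0.35 (95% interval −0.86 to 0.17), was not called. Only 0.133% of genes tested had a change as low as or lower than that of CCND1 at 6 h. Within the inhibited cells, with no DMSO column involved, CCND1 fell by 0.98 (SE 0.13, adjusted p = 0.00331) from 2 h to 6 h and by 0.75 (SE 0.13) from 6 h to 24 h on the log2 scale. Without the PD184352 2 h column the first of these was −1.04 and not called (adjusted p = 0.0636, with a range of 7.83e-10 to 0.0636 over 15 alternatives). The 24 h column minus the 6 h column was −1.01 with PD184352, −0.50 with PLX4720 and −0.41 in DMSO.

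The other D cyclins gave no call against the DMSO column of the same time, CCND2 being untested. CCND3, which encodes cyclin D3, read 8.49, 8.28 and 8.07 in DMSO at 2, 6 and 24 h, 8.25, 8.24 and 7.76 with PD184352, and 8.24, 8.28 and 7.88 with PLX4720. All treatments, DMSO included, were lowest at 24 h. Its change was −0.24 (SE 0.09) at 2 h, −0.01 (SE 0.09) at 6 h and −0.25 (SE 0.09, adjusted p = 0.0576) at 24 h by limma, and none was called. Inhibited cells fell by 0.44 (SE 0.07, adjusted p = 0.000969) from 6 h to 24 h, beside a difference of −0.21 between the DMSO columns of these times. The 24 h change of CCND3 depends on the control: set against all 3 DMSO columns as 1 group it was −0.46 (adjusted p = 0.00597) and called, as were the other 6 genes, where 23% of all genes were called lower. It was also called with the lowest 50% of genes left out. Over all 15 alternatives that adjusted p ranged from 0.00597 to 0.294.

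CCND2, which encodes cyclin D2, stood at the dim end of the array, with levels between 5.70 and 6.03 in all 9 columns. The 25% of genes set aside as dim ended at 6.21. The treated columns differed from DMSO of the same time by −0.04 to 0.10, and treated and DMSO values overlapped. No direction is given for CCND2.

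CDK6 is the kinase partner of the D cyclins. Over 2, 6 and 24 h it read 9.65, 9.81 and 9.64 in DMSO. With PD184352 it was 9.48, 9.07 and 8.32, and with PLX4720 it was 9.62, 9.16 and 8.56. At 2 h, 6 h and 24 h both inhibitor columns lay below all 3 DMSO columns, narrowly at 2 h. CDK6 differed by −0.10 (SE 0.11) at 2 h, −0.70 (SE 0.11, adjusted p = 0.00853) at 6 h and −1.20 (SE 0.11, adjusted p = 3.50e-05) at 24 h by limma. The 6 h change thus came to 58.3% of the 24 h change. Without the PD184352 6 h column the 6 h change was −0.66 and no longer called (adjusted p = 0.0549, with a range of 2.24e-05 to 0.0549 over 15 alternatives).

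From 2 h to 6 h inhibited cells lost 0.44 (SE 0.09, adjusted p = 0.0263) of CDK6, a call lost without any 1 of the 4 inhibitor columns of these times (−0.37 to −0.50) and with no filter on dim genes, with an adjusted p of 0.000807 to 0.195 over 15 alternatives. From 6 h to 24 h they lost a further 0.68 (SE 0.09, adjusted p = 0.000318). CCND1 and CDK6 were the 2 genes of the set called lower between 2 h and 6 h in inhibited cells, where 1.45% of all genes were.

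Both E cyclins were called at 24 h, with falls of different size. CCNE2, which encodes cyclin E2, read 7.95, 8.21 and 8.27 in DMSO at 2, 6 and 24 h. It was 7.98, 8.02 and 6.30 with PD184352 and 8.17, 7.93 and 6.57 with PLX4720. Treated and DMSO columns overlapped at 2 h and 6 h and were far apart at 24 h. CCNE2 differed by 0.13 (SE 0.12) at 2 h, −0.23 (SE 0.12, adjusted p = 0.444) at 6 h and −1.83 (SE 0.12, adjusted p = 6.43e-06) at 24 h by limma. The final value with PD184352 was close to the limit of 6.21 under which genes were set aside as dim.

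CCNE1, which encodes cyclin E1, was 1.33-fold lower at 24 h. Its level was 8.92, 9.08 and 9.13 in DMSO, 8.89, 8.93 and 8.71 with PD184352, and 9.06, 8.74 and 8.75 with PLX4720. Treated and DMSO columns overlapped at 2 h, and both treated columns lay below all DMSO columns at 24 h. The change was 0.05 (SE 0.11) at 2 h, −0.25 (SE 0.11, adjusted p = 0.307) at 6 h and −0.41 (SE 0.11, adjusted p = 0.0164) at 24 h by limma. From 2 h to 24 h the DMSO level differed by 0.21, and inhibited cells differed by −0.10 (SE 0.09, adjusted p = 0.433) from 6 h to 24 h. CCNE1 was the 1 tested gene of the set not called lower in that interval.

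CDK2 is the kinase that the E cyclins activate. It read 10.45, 10.52 and 10.37 in DMSO, 10.35, 10.42 and 9.18 with PD184352, and 10.36, 10.21 and 9.24 with PLX4720. The 2 inhibitors were within 0.06 of each other at 24 h, more than 1 unit below every DMSO column. CDK2 differed by −0.09 (SE 0.10) at 2 h, −0.21 (SE 0.10, adjusted p = 0.372) at 6 h and −1.16 (SE 0.10, adjusted p = 2.30e-05) at 24 h by limma. The inhibitors differed at 6 h, where CDK2 was at −0.10 with PD184352 and −0.31 with PLX4720 relative to DMSO.

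CDC25A, the phosphatase that activates these kinases, had the largest 24 h fall of the set. It stood at 9.18, 9.40 and 8.98 in DMSO. With PD184352 it was 8.89, 8.82 and 6.62, and with PLX4720 it was 9.12, 8.83 and 7.21. The change was −0.18 (SE 0.19) at 2 h, −0.57 (SE 0.19, adjusted p = 0.168) at 6 h and −2.07 (SE 0.19, adjusted p = 2.98e-05) at 24 h by limma, a 4.19-fold drop that 0.235% of genes tested matched or exceeded. At 6 h both inhibitors lay below all DMSO columns, yet the change was not called.

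The spread that CDC25A was tested against at 6 h includes the gap between the compounds at 24 h, which was 0.58. Leaving out either inhibitor column of 24 h, the same 6 h change had an adjusted p of 0.000600, and over 15 alternatives the value ranged from 0.000600 to 0.36. Against pooled DMSO it was −0.36. At 6 h itself the compounds differed by 0.02.

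**Figure D2:**
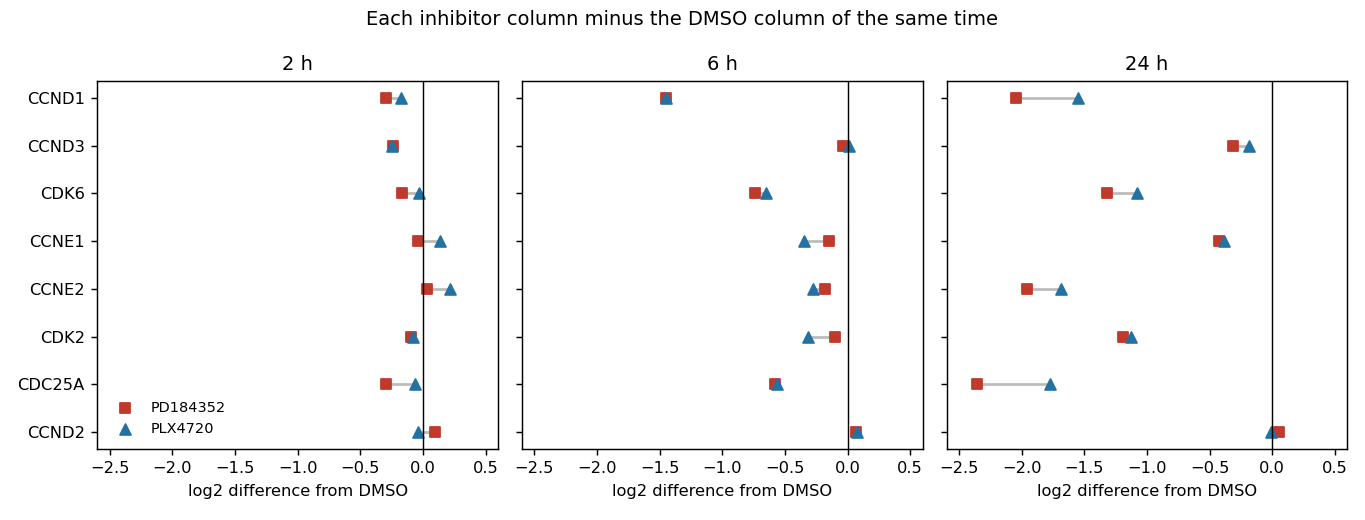
Log2 difference of each inhibitor column from the DMSO column of its time (horizontal axis) for 8 genes (vertical axis) at 2, 6 and 24 h, with squares for PD184352, triangles for PLX4720 and no error bars, since each point is 1 column. At 24 h CDC25A lies at −2.36 and −1.78 and CCND2 at 0.05 and −0.01.

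Whether the change with inhibitor differed between times was tested directly by an F-test in limma. It was called for 5 of the 7 genes, CCND1, CCNE2, CDK2, CDK6 and CDC25A, where 14.9% of all genes were. For CCND3 (adjusted p = 0.385) and CCNE1 (adjusted p = 0.159) it was not. The 24 h change minus the 6 h change was −1.60 (SE 0.18) for CCNE2, −1.497 (SE 0.27) for CDC25A and −0.95 (SE 0.14) for CDK2, and these 3 genes were called, where 5.07% of all genes were called in that direction. CDK6, at −0.50 (SE 0.16, adjusted p = 0.0854), and CCND1, at −0.35 (SE 0.23, adjusted p = 0.447), were not. For the 6 h change minus the 2 h change limma called 0 of 7 genes and 0.0704% of all genes. CCND1, at −1.22 (SE 0.23), and CDK6, at −0.60 (SE 0.16), were the 2 with an unadjusted p below 0.05.

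Within inhibited cells, a comparison that uses no DMSO column, 6 of the 7 genes were called lower at 24 h than at 6 h, where 18.8% of all genes were. The values were −1.91 (SE 0.16) for CDC25A, −1.54 (SE 0.10) for CCNE2, −1.10 (SE 0.08) for CDK2, −0.75 for CCND1, −0.68 for CDK6 and −0.44 for CCND3. Between 2 h and 24 h the DMSO columns differed by −0.42 for CCND3, 0.32 for CCNE2, 0.21 for CCNE1, −0.20 for CDC25A, −0.17 for CCND1, −0.07 for CDK2 and −0.02 for CDK6. A size over 0.3 was reached by 2 of these 7 genes and by 13.1% of all genes.

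**Figure D3:**
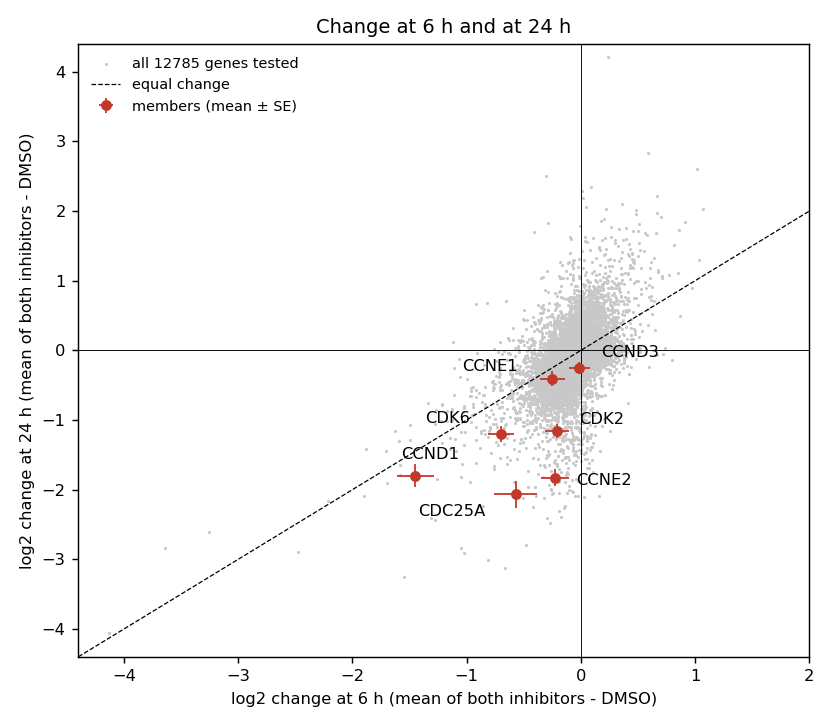
Change at 6 h (horizontal axis) and at 24 h (vertical axis), each the log2 mean of both inhibitors minus DMSO, for 12785 genes in grey and the 7 tested genes in red with SE bars. CCND1 lies nearest to the dashed line of equal change among the 5 genes with large falls, and CCNE2 and CDK2 lie well below it near 0 at 6 h.

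At 24 h all 7 tested genes lay below all 3 DMSO columns with both inhibitors, which held for 30.6% of all genes. At 6 h this was true of 3 genes, CCND1, CDK6 and CDC25A, against 16.4% of all genes, and at 2 h also of 3, CCND1, CDK2 and CDK6, against 18.2%.

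The compounds were compared over the 6 inhibitor columns, with time as a block. Compound and dose cannot be told apart, since the doses differ. limma called 0 of 7 genes and 0% of all genes (smallest adjusted p = 0.194), with 3 of the 7 at an unadjusted p below 0.05, against 4.35% of all genes. PD184352 minus PLX4720 was −0.28 (95% interval −0.48 to −0.08) for CDC25A, −0.21 (interval −0.39 to −0.02) for CCND1 and −0.15 (interval −0.30 to −0.01) for CDK6. For CCNE2 it was −0.12 (interval −0.29 to 0.05), for CCND3 −0.05 (interval −0.20 to 0.09), for CDK2 0.05 (interval −0.11 to 0.20) and for CCNE1 −0.00 (interval −0.17 to 0.16). Without PD184352 24 h or PLX4720 24 h the CDC25A value was −0.13. For the difference averaged over the times, these intervals leave room for up to 0.48 on the log2 scale in CDC25A and less in the others. They do not bound the difference at a single time, which at 24 h was −0.58 for CDC25A and −0.50 for CCND1.

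At single times there is no test of the compounds. At 24 h the level was lower with PD184352 in 7 of 7 genes, by 0.58 for CDC25A, 0.50 for CCND1, 0.27 for CCNE2 and 0.24 for CDK6. PD184352 was the lower of the 2 in 50.2% of all genes at that time and in 73.8% of the 2450 genes called lower at 24 h. At 6 h it was lower in 3 of 7 genes, against 42% of all genes, and at 2 h in 6 of 7, against 70.1%.

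The rest of the G1 to S pathway was described from lists of genes by role, with counts in the same test, to be read against the 19.2% of all genes called lower and the 12.5% called higher at 24 h. The CDK inhibitor genes, whose proteins block cyclin-CDK complexes, were not called in any direction at 24 h (0 of 6 tested). CDKN1A was at 0.23 (adjusted p = 0.0764) and CDKN1B, which encodes p27, at −0.06 (SE 0.09) by limma. CDKN1B was at 0.24 at 2 h (adjusted p = 0.559 by limma) and 0.21 at 6 h (adjusted p = 0.273), neither called. Its inhibitor columns of 2 h and 6 h read 7.13 to 7.28, and the DMSO columns 6.90 to 7.02. At 24 h 1 of the 6 had an unadjusted p below 0.05, where 5128 of all 12785 genes tested had. Of 11 pocket protein, E2F and partner genes 9 were lower and none higher, with a median of −0.70. The 4 largest falls were in E2F8 (−1.30, SE 0.12), E2F7 (−1.18, SE 0.11), RBL1, which encodes the pocket protein p107 (−1.12, SE 0.11), and E2F6 (−0.91, SE 0.10), while RB1 was at 0.04 (SE 0.12). With all rows of a gene averaged RBL1 was at −0.57 and E2F6 at −0.55, both still called. E2F5 was lower at 6 h already, at −0.55 (adjusted p = 0.0229 by limma).

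Genes of S phase entry and of later steps of the cycle were lower at 24 h as well. All 16 tested E2F target genes of S phase entry were, with a median of −1.27, led by the replication genes MCM10 (−2.05, SE 0.21), CDC45 (−2.01, SE 0.19), ORC1 (−1.62, SE 0.13) and CDC6 (−1.51, SE 0.10). So were all 6 later cyclins, kinases and CDC25 phosphatases, among them CDK1 (−2.26, SE 0.13) and the cyclin genes CCNA2 (−1.44, SE 0.11), CCNB2 (−1.39, SE 0.09) and CCNB1 (−1.30, SE 0.10). The CDC25A relatives CDC25C and CDC25B were at −0.88 (SE 0.09) and −0.42 (SE 0.09). At 6 h limma called 0 of these 22 genes, where 2.74% of all genes were called lower and 0.548% higher. None of the 22 had an unadjusted p below 0.05, where 1983 of all 12785 genes tested had.

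Markers of cells in cycle were called lower at 24 h and not at 6 h. All 10 were lower at 24 h, with a median of −1.49, and limma called 0 at 6 h and 0 at 2 h, with 0 and 1 at an unadjusted p below 0.05. Their summed intensity was 15340 to 18090 over the DMSO columns, 14310 to 17900 over the inhibitor columns of 2 h and 6 h, and 5517 with PD184352 and 5926 with PLX4720 at 24 h. The part of a smaller share of cycling cells in the 24 h falls of CCND1, CDK6, CCNE1, CCNE2, CDK2 and CDC25A was not tested. In these bulk samples fewer such cells and less transcript per cell cannot be told apart.

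Of 8 other cyclins 2 were lower and 3 higher at 24 h, with a median of 0.16, where 19.2% of all genes were lower and 12.5% higher. CCNL2, linked to RNA splicing, was at 0.53 (SE 0.09), CCNG1, a p53 target, at 0.45 (SE 0.09), CCNJ at −0.38 (SE 0.09) and CCNY at −0.30 (SE 0.09). CCNG2 was higher at 6 h, at 0.53 (adjusted p = 0.00721 by limma), and at 24 h, at 0.28 (SE 0.08). Without PLX4720 24 h CCNY was at −0.27 and not called (adjusted p = 0.101, range 0.0225 to 0.101 over 14 alternatives). Of 7 genes of the CDK-activating kinase and the transcription cyclins 3 were lower, CDK12 (−0.54, SE 0.11), CCNC (−0.38, SE 0.09) and CCNT1 (−0.38, SE 0.09), with a median of −0.27. CDK12 was at −0.12 and not called when all rows of a gene were averaged (adjusted p = 0.456, with a range of 0.000187 to 0.456 over 15 alternatives). CCNT1 was at −0.23 and not called against pooled DMSO (adjusted p = 0.169, range 0.0045 to 0.169).

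Genes that act in the turnover of G1 regulators gave 5 lower and 1 higher of 14, with a median of −0.23, where 19.2% of all genes were lower and 12.5% higher. Those that fell furthest were CKS2 (−1.54, SE 0.10), SKP2, which targets p27 for destruction (−0.97, SE 0.14), its cofactor CKS1B (−0.70, SE 0.10) and CUL3, a ubiquitin ligase scaffold for cyclin E (−0.45, SE 0.10), followed by CUL1 (−0.42, SE 0.09). With all rows of a gene averaged CKS2 was at −0.72, still called. USP2, a deubiquitinase of cyclin D1, was higher (0.34, SE 0.09). FBXW7, which marks cyclin E for destruction, was at 0.03 (SE 0.11).

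Among other output genes of the ERK pathway, 5 of 13 were called lower at 2 h (SPRY4, FOSL1, EGR1, PHLDA1 and IER3), where 0.0704% of all genes were. All 13 were called lower at 6 h and at 24 h, with medians of −0.69, −1.55 and −1.33 at 2, 6 and 24 h. At 2 h 12 of the 13 had an unadjusted p below 0.05 by limma, where 7.41% of all genes had. The largest 2 h changes, in DUSP6 (−2.88, adjusted p = 0.157) and SPRY2 (−2.44, adjusted p = 0.186), were not called. The spread in their test includes the compound gap at 24 h, where DUSP6 read 6.84 with PD184352 and 8.69 with PLX4720. The largest falls at 24 h were in SPRY4 (−4.06, SE 0.25), ETV5 (−3.25, SE 0.14), ETV4 (−3.12, SE 0.14) and DUSP6 (−2.84, SE 0.56). Of 15 transcription factor genes that are known to act on D cyclin genes, 1 was lower at 2 h, FOSL1, which is also among the ERK output genes. At 6 h 4 were lower, FOSL1 (−1.62), LEF1 (−0.85), MYC (−0.79) and TCF7L2 (−0.39), and at 24 h 5 were lower and 3 higher. At 24 h the AP-1 genes JUN (2.29, SE 0.12) and FOSL2 (1.66, SE 0.14) were higher and FOSL1 (−1.15, SE 0.10) and the Wnt pathway factor LEF1 (−1.14, SE 0.09) lower. Against pooled DMSO FOSL1 was at −1.74. The others called were MYC (−0.86, SE 0.10), ETS2 (−0.76, SE 0.12), TCF7L2 (−0.44, SE 0.09) and, higher, ETS1 (0.76, SE 0.10).

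**Figure D4:**
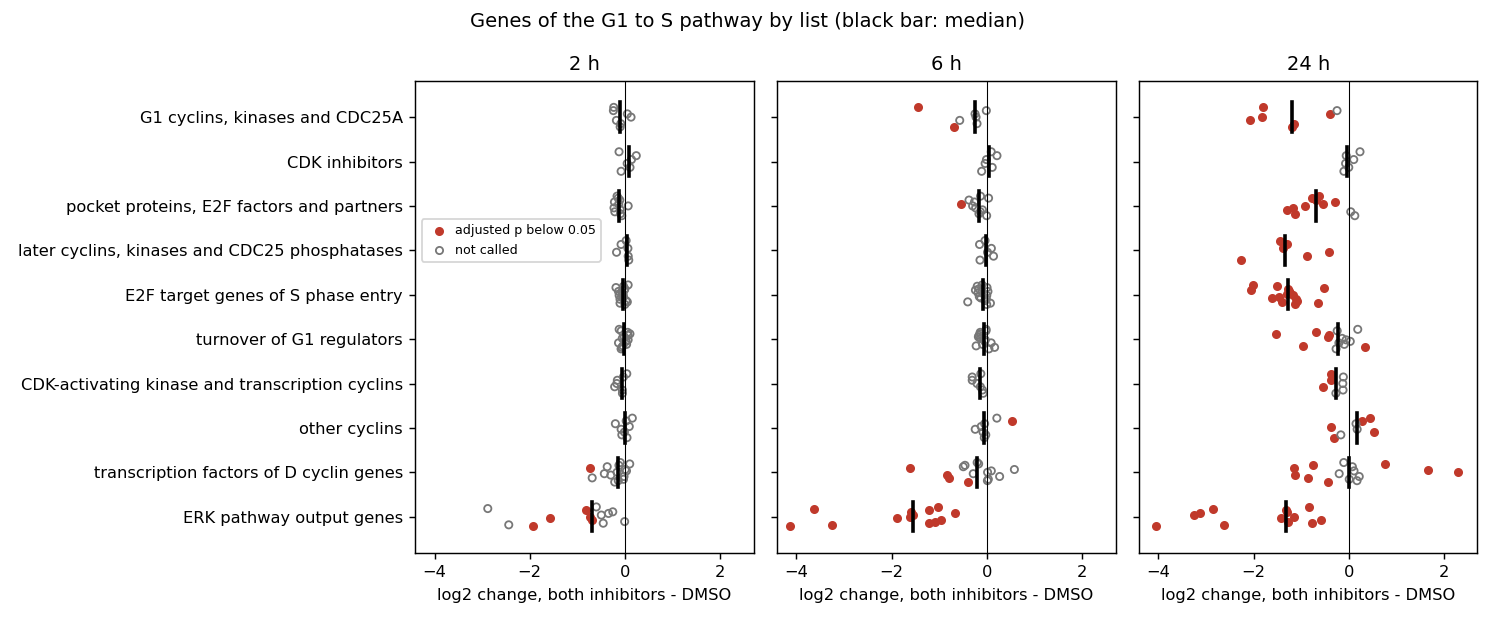
Log2 change, both inhibitors minus DMSO (horizontal axis), of each tested gene by list (vertical axis) at 2, 6 and 24 h, with filled red points for genes called by limma, open points for the others and a black bar at the median. Of the 13 ERK output genes 5 are called lower at 2 h, where the list median is −0.69, and all 13 from 6 h on. The lists of S phase entry and later cyclins move at 24 h, with medians of −1.27 and −1.34.

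Genes with a course most like that of each called member were found from the 6 differences between an inhibitor column and its DMSO column, by root mean square difference over 12785 genes. These 6 values share 3 DMSO columns, so this is a description only. For CCND1 the nearest were CEMIP (0.16), GNE (0.20) and CD200 (0.21), which like it were low at 6 h, with changes of −1.26, −1.59 and −1.59. For CDK6 they were RRS1, a ribosome assembly gene (0.09), LONRF3 (0.10) and the ephrin gene EFNA5 (0.10).

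CCNE2 was nearest to ATAD5, which unloads the replication clamp (0.10), the kinase gene MELK (0.11) and the kinetochore gene ZWINT (0.11), and CDK2 to RBL1 (0.04), the condensin gene SMC2 (0.06) and CCDC15 (0.06). CDC25A was nearest to the fatty acid elongase gene ELOVL2 (0.06), DDIAS (0.14) and the Fanconi gene FANCB (0.17). For CCNE1, whose changes were small, TOR1AIP2 (0.037), RPUSD2 (0.039) and ZFAND1 (0.045) were nearest.

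The columns were alike in median and correlation, measures that processing before deposit can make alike. Median intensities lay between 98.96 and 102.4, no pair of columns held identical values, and the lowest correlation between columns over genes was 0.964. Of 10 melanocyte lineage markers 8 had a row, with PMEL at percentile 98.9 of all genes, SOX10 at 97, MLANA at 33.7 and TYRP1 at 17.9. Of the 7 tested, 5 were called higher at 24 h (0.44 to 0.84), where 12.5% of all genes were. TYRP1, untested as dim, read 5.15 in DMSO, 7.07 with PD184352 and 6.78 with PLX4720 at 24 h. Lymphocyte, epithelial and endothelial marker lists had median percentiles of 13, 56.1 and 34.2. The epithelial median came from 3 keratins, while EPCAM and CDH1 stood at percentiles 20.9 and 18.3.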

How the data were processed

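Expression was measured on a whole-transcript exon array, and each row stands for 1 transcript cluster. The authors deposited linear intensities, 1 value per row and column. RMA, limma and R 2.8.0 are named, with no role or order, per the submitters' processing notes. No genome build is named in the sources used here, and RefSeq (GRCh38.p14) served only for gene names and promoter windows. The number of arrays limits the precision. From the deposited intensity, log2(value + 1) was computed with no further normalization. Of 35446 rows, 19380 had 1 symbol, 3339 had several and 12727 were not in the platform table. The row with the highest mean was used for each gene, and the 25% of genes with the lowest means were left out. limma 3.58.1 in R 4.3.3 was fitted to all 12785 genes: 1 mean for each time of DMSO and of both inhibitors together (residual degrees of freedom 3), and a second fit of compound and time on the 6 inhibitor columns (residual degrees of freedom 2). Adjustment was by Benjamini-Hochberg. SE is the moderated one of limma. Other settings tried were the pseudocount, quantile normalization, the filter on dim genes, averaging of rows, the control columns and leaving out each column.

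The genes of the set, the lists and the tests were chosen with earlier results of these data known. The genes named outside the set are the 4 called genes of each list with the largest 24 h change, and the 3 genes nearest to each called gene. CDKN1A, CDKN1B, RB1, CDC25B, CDC25C, CCNG2, FBXW7, E2F5, CUL1, USP2, EGR1, PHLDA1, IER3, SPRY2, MYC, ETS1, ETS2, TCF7L2 and the markers named singly were chosen after their values were seen.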

Additional observations from a re-analysis of the deposited data

Results flagged for a closer look

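For 5 genes the change with inhibitor differed between times by limma's F-test, each with a larger fall at 24 h than at 2 h with both inhibitors. The change at 24 h minus that at 2 h was −1.95 (SE 0.18) for CCNE2, −1.89 (SE 0.27) for CDC25A, −1.56 (SE 0.23) for CCND1, −1.10 (SE 0.16) for CDK6 and −1.07 (SE 0.14) for CDK2. The F-test's adjusted p was 0.000288, 0.00256, 0.00312, 0.00397 and 0.00151 in that order. Between 6 h and 24 h the change grew by a called amount for CCNE2, CDC25A and CDK2, and for CCND1 and CDK6 that difference was not called. No group had enough columns for a search for outlying samples.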

How the results depend on the processing

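The count of 6 genes lower at 24 h lay between 6 and 7 over all alternatives, and the F-test count was 5 in all of them. The count of 2 at 6 h was 1 to 3 when 1 column was left out, with 1 without PD184352 6 h, where CDK6 lost its call, and 3 without either 24 h inhibitor column, where CDC25A gained one. The count of 2 between 2 h and 6 h in inhibited cells was 0 to 2 when 1 column was left out (0 without PD184352 2 h, and 1 without PD184352 6 h, PLX4720 2 h or PLX4720 6 h), and 1 with no filter on dim genes. The count of 65 list genes called at 24 h, lower and higher together, ranged from 57 to 72. In the main fit 19.2% of all genes were called lower and 12.5% higher at that time. The signs that turned were all of values that were not called. With quantile normalization they were CCND3 at 6 h (0.0405) and between 2 h and 6 h (−0.0215) and PD184352 minus PLX4720 for CCNE1 (0.01). With pooled DMSO they were CCNE1 (−0.0753) and CCNE2 (−0.0661) at 2 h. When 1 column was left out, CCND3 ranged from −0.035 to 0.0095 at 6 h and from −0.0036 to 0.0409 between 2 h and 6 h, CCNE1 from −0.0362 to 0.1354 at 2 h, CDK2 from −0.1493 to 0.0619 between 2 h and 6 h, and PD184352 minus PLX4720 from −0.1026 to 0.0812 for CCNE1 and from −0.0362 to 0.0993 for CDK2. The DMSO column of a time cannot be left out of the comparison at that time. No paired analysis was possible because each group has 1 column and the labels give no replicate numbers, so that columns could be matched by time alone, as in the comparison of the compounds.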
